A study of Mus musculus with 12 samples.

Results

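Cholesterol and fatty acid synthesis were followed through 33 genes of mouse embryonic stem cells (ESCs), out of 23496 genes with a value in the table. The genes were picked by function, with earlier results of these data known. They are enzymes of the cholesterol pathway, enzymes that make, lengthen or desaturate fatty acids, and the SREBP proteins with their regulators and sterol transporters. By role they were 7 genes of the mevalonate and isoprenoid steps, 11 of the steps between squalene and cholesterol, 7 regulators and sterol transporters, 4 of fatty acid synthesis and elongation, and 4 fatty acid desaturases. RNA-seq covered 12 libraries in 3 groups of 4. ESCs labelled as Tfcp2l1 knockout were kept in 2i, a medium without serum made of DMEM/F12 and Neurobasal with N2 and B27 supplements, the GSK3 inhibitor CHIR99021 at 3 µM and the MEK inhibitor PD0325901 at 1 µM. Wild-type ESCs were grown in the same 2i medium. Wild-type ESCs were also grown in high-glucose DMEM with 15% fetal bovine serum (FBS). All 3 groups received LIF, a cytokine that sustains ESC self-renewal, at 1000 units/mL and 2-mercaptoethanol. The labels name no strain, allele, passage or clone, and do not state whether replicates are separate cultures. The p-values therefore describe the spread among these libraries alone, and that spread may be technical.

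Levels are FPKM (fragments per kilobase of transcript, scaled to library size), as the authors deposited them, summed here per gene. The depth of the libraries relative to each other was 0.97 to 1.42, taking replicate 1 of the wild type in 2i as 1. For values of 5 to 20 FPKM the authors' interval spanned, to either side of its middle, a median of 8.16% to 9.81% of the value. In 1641 to 2188 entries per library its upper bound lay below the value itself, so the interval does not always surround the value. Tfcp2l1, the targeted transcription factor (mm9 chr1:120524522-120581745), was listed at 76.1, 72, 82.9 and 84.7 FPKM in knockout libraries, against 133, 143, 112 and 139 FPKM in wild-type 2i libraries. The groups did not overlap (log2 difference -0.73, SE 0.10, adjusted p = 0.000119 by limma; two-sided p = 0.0286 by exact permutation, which cannot go lower with 4 against 4), yet the transcript was still abundant in the knockout libraries. The part of the gene that was deleted is not stated, so this value checks only the direction of the label. The 10 ESC markers were high in every group, with a mean log2(FPKM + 1) level of 7.08 ± 0.04 in knockout, 7.13 ± 0.05 in wild type in 2i and 7.46 ± 0.07 in FBS (SD, n = 4 each). At an adjusted p under 0.05 by limma, 5 of the 10 were lower and 1 higher in knockout than in wild type in 2i. Over all genes 21.4% were lower and 24.0% higher. The 20 fibroblast markers had a mean level of 3.63 ± 0.26 in knockout, 2.92 ± 0.23 in wild type in 2i and 2.72 ± 0.15 in FBS (SD, n = 4 each). Of these 20, 18 were higher in knockout than in wild type in 2i, against the same 24.0%. Their summed level ran from 425 to 688 FPKM in knockout, from 241 to 358 FPKM in wild type in 2i and from 181 to 258 FPKM in FBS. In bulk RNA, fewer cells of a type and less RNA per cell cannot be told apart.

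Cells make cholesterol from acetyl-CoA through mevalonate, isoprenoid units, squalene and lanosterol, and make fatty acids from the same acetyl-CoA through malonyl-CoA. The SREBP transcription factors, encoded by Srebf1 and Srebf2, switch on most genes of both routes. Their precursors sit in the endoplasmic reticulum bound to the escort protein Scap; when sterols are plentiful, Insig proteins hold the complex there, and when sterols run low it moves to the Golgi and is cut to release the active factor. Insig1 is itself an SREBP target. Stearoyl-CoA desaturases place a double bond in saturated fatty acids, whereas Fads1 and Fads2 act on polyunsaturated ones. 2i medium lacks serum, and serum carries lipoprotein cholesterol and fatty acids.

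SREBP binds sterol response elements in promoters, usually beside sites for NF-Y and Sp1, so the RefSeq promoters (GRCm38.p6, 250 bases before to 50 after the start) were searched on both strands. Of the 33 genes, 26 matched the promoter table, with 34 promoters. Fdps, Fdft1, Sqle, Stard4, Scd1, Scd2 and Fads1 did not match and were not searched, so Fads2 was the only desaturase searched. The classical sterol response element TCACNCCAC was present in 1 of the 34 (2.94%) and in 1.24% of all 32851 promoters. The NF-Y box CCAAT was present in 21 of the 34 (61.8%) and in 37.4% of all promoters, the Sp1 box GGGCGG in 26 (76.5%) and in 35.7%, and the E-box CACGTG in 7 (20.6%) and in 7.15%. A CP2-type motif, which is CCNG repeated after a gap of 6 letters and is named for the family to which Tfcp2l1 belongs, was present in 14 (41.2%) and in 29.5% of all. A match is only a string of letters in this window, and these shares were not tested; members with several starts gave overlapping promoters.

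The 5 promoters below show the range among genes described later: the single gene with the sterol response element (Hmgcs1), a sterol regulator and a sterol enzyme that fell in knockout cells (Insig1, Msmo1), a desaturase that fell (Fads2) and the elongase that rose (Elovl6). They are read 5′ to 3′ on the gene's strand from GRCm38.p6, and capitals mark TCACNCCAC and CCAAT on either strand (ATTGG is CCAAT on the other strand).
Hmgcs1 (chr13:119690101-119690400, plus strand): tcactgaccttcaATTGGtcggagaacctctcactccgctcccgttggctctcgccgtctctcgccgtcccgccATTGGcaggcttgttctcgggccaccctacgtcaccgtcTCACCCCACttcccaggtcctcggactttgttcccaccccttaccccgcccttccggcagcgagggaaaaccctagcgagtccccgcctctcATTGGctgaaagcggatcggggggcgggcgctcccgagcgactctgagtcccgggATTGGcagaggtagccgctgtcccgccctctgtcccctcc
Insig1 (chr5:28071162-28071461, plus strand): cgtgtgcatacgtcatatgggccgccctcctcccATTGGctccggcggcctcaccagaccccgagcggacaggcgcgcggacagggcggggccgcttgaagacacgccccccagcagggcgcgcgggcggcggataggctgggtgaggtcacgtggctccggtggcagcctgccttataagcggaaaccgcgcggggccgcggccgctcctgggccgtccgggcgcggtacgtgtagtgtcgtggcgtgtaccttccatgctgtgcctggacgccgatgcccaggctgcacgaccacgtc
Msmo1 (chr8:64733529-64733828, minus strand): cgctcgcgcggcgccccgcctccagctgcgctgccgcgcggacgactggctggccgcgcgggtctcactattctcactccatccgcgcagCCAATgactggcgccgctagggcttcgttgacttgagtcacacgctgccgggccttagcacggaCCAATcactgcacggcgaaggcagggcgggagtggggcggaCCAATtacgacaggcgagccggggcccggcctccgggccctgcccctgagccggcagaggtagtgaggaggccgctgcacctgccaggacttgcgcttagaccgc
Fads2 (chr19:10101454-10101753, minus strand): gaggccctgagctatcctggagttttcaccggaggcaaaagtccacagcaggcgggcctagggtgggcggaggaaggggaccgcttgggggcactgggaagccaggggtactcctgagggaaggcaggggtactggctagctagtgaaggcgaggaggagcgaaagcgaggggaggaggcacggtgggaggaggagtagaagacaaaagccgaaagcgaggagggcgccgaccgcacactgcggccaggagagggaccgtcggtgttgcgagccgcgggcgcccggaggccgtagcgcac
Elovl6 (chr3:129532136-129532435, plus strand): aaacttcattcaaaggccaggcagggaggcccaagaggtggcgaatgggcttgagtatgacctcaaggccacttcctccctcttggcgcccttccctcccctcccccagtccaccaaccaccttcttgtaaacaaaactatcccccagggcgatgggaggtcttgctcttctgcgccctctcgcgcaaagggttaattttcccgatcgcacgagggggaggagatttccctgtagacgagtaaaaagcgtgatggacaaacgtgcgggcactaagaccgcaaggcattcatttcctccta
The Hmgcs1 promoter held 1 sterol response element and 4 NF-Y boxes, that of Msmo1 held 3 NF-Y boxes, and that of Insig1 held 1 NF-Y box, 1 E-box and 3 CP2-type pairs. Those of Fads2 and Elovl6 held neither capitalised motif, and the Fads2 promoter held 1 CP2-type pair.

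Of the 33 genes, 32 reached 1 FPKM in at least 4 libraries and were tested within a limma fit over 12329 genes. The exception was Hmgcs1, the enzyme that makes HMG-CoA: it was listed at 0 in all 12 libraries. Both of its entries lie on chr13_random, the unplaced part of chromosome 13 in mm9, where the table holds 2 copies of one transcript, so the 0 is given only as listed.

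The first comparison, knockout against wild type in 2i, asks which transcripts depend on Tfcp2l1. Of the 32 genes, 16 were lower and 1 was higher in knockout at an adjusted p under 0.05, and 15 did not pass. Over all genes tested 45.3% passed, 24.0% higher and 21.4% lower. The median log2 difference of the 32 genes was -0.25, against 0.01 over all genes tested, and 29 of the 32 values were negative. Because the genes were chosen with earlier results of these data known, these counts are a description and no p was computed for the list. The 4 libraries of each group did not overlap for 13 lower genes and 1 higher gene, against a background of 20.4% lower and 23.7% higher. By role, the lower genes were 4 of 4 desaturases, 5 of 7 regulators and transporters, 6 of 11 enzymes between squalene and cholesterol, 1 of 4 genes of fatty acid synthesis and elongation, and 0 of 6 tested mevalonate and isoprenoid enzymes.

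The second comparison, 2i against FBS in wild-type ESCs, was set up by the study to contrast the culture conditions. Of the 32 genes, 10 were higher and 12 were lower in 2i, and 10 did not pass. Over all genes tested 72.4% passed, 37.1% higher and 35.3% lower, against 68.8% of these genes. Their median log2 difference was -0.01, against 0.01 over all genes tested. The groups did not overlap for 9 higher and 11 lower genes, against 32.0% and 30.5% of all genes. By role, 4 of 4 desaturases were higher in 2i, while 4 of 6 mevalonate and isoprenoid enzymes and 5 of 11 enzymes between squalene and cholesterol were lower. Both comparisons use the same wild-type 2i libraries, so a deviation of these libraries enters both with opposite sign.

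**Figure D1:**
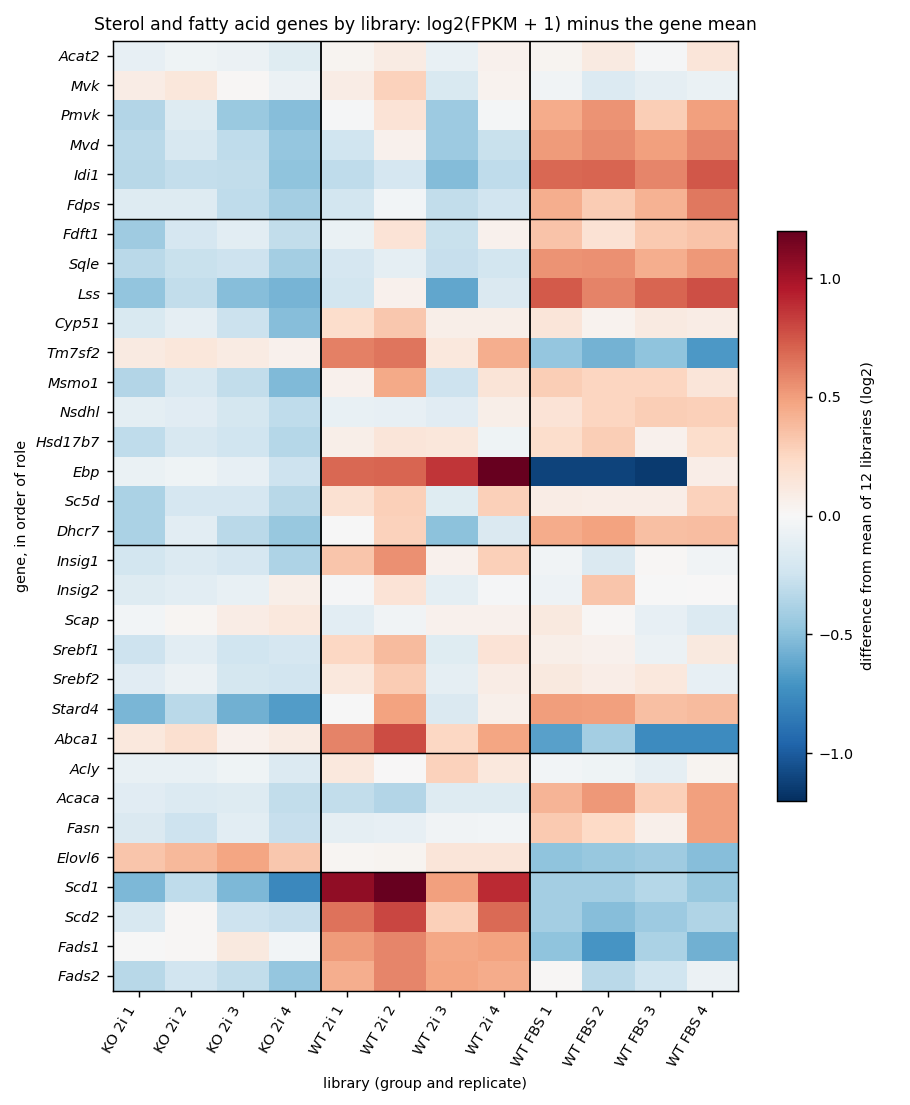
Heat map of log2(FPKM + 1) for the 32 tested genes (rows, in order of role, with lines between roles) in the 12 libraries (columns: knockout 2i, wild type 2i, wild type FBS), as the difference from each gene's mean over the 12 libraries. Colours are capped at 1.2 log2 units in either direction. The 4 desaturases at the bottom are high in the 4 wild-type 2i libraries, and the block between Pmvk and Lss is high in the 4 FBS libraries.

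Among the 5 roles the desaturases had the median log2 differences farthest from 0, -0.80 in knockout and 1.04 in 2i against FBS. All 4 lie on chromosome 19 in mm9, as neighbouring pairs: Scd2 (chr19:44368166-44381352) beside Scd1 (chr19:44468940-44482199), and Fads2 (chr19:10138654-10175993) beside Fads1 (chr19:10257378-10271362). Scd1, the stearoyl-CoA desaturase of most adult tissues, had 22.3, 26.3, 22.2 and 18.7 FPKM in knockout libraries, against 69.4, 83.7, 46.4 and 61.8 FPKM in wild-type 2i libraries. Its FBS libraries had 24.5, 24.5, 25.7 and 23.6 FPKM. Every wild-type 2i library lay above every library of the other groups. Scd1 thus fell to 34.2% of its wild-type 2i mean in knockout (log2 difference -1.48, SE 0.14, adjusted p = 6.97e-06) and was higher in 2i than in FBS (log2 difference 1.35, SE 0.14, adjusted p = 2.42e-06).

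Scd2, the desaturase known best from brain, was the most abundant of the 4. It had 122, 141, 117 and 115 FPKM in knockout libraries, 219, 243, 170 and 224 FPKM in wild-type 2i libraries and 105, 97.6, 103 and 108 FPKM in FBS libraries. Knockout libraries fell below all wild-type 2i libraries (log2 difference -0.78, SE 0.10, adjusted p = 5.18e-05), and 2i exceeded FBS (1.03, SE 0.10, adjusted p = 7.96e-07). Scd1 and Scd2 did not move in equal measure: within a library Scd2 exceeded Scd1 by a ratio of 5.56 ± 0.391 in knockout, 3.33 ± 0.367 in wild type in 2i and 4.22 ± 0.273 in FBS (SD, n = 4 each), with no overlap between groups. The paralogs Scd3 and Scd4, named here only because reads of near-identical copies can be split between them, were far lower: Scd3 ranged from 4.87 to 7.36 FPKM in knockout and from 3.04 to 7.13 FPKM in wild type in 2i, and Scd4 reached at most 0.0775 FPKM in knockout and 0.372 FPKM in wild type in 2i.

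Fads1, the delta-5 desaturase that forms arachidonic and eicosapentaenoic acid, had 27.7, 28.1, 30.1 and 27.1 FPKM in knockout libraries, against 39.9, 42.1, 38.7 and 39.2 FPKM in wild-type 2i libraries. FBS libraries had 19.6, 16.6, 21.1 and 18.3 FPKM, the lowest of the 3 groups. The knockout level thus lay between both wild-type groups without overlap (knockout minus wild type in 2i -0.49, SE 0.06, adjusted p = 7.95e-05; 2i minus FBS 1.05, SE 0.06, adjusted p = 1.77e-08, both log2).

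Fads2, the delta-6 desaturase that opens the same route, had 28.8, 31.1, 29.6 and 26.3 FPKM in knockout libraries, 49.8, 55.6, 51.3 and 50.1 FPKM in wild-type 2i libraries and 36.9, 29, 30.9 and 34.7 FPKM in FBS libraries. It fell in knockout (log2 difference -0.82, SE 0.07, adjusted p = 4.01e-06) and was higher in 2i than in FBS (0.64, SE 0.07, adjusted p = 4.72e-06). Its promoter, printed above, held none of the capitalised motifs. Fads2 over Fads1 within a library was 1.02 ± 0.0609 in knockout, 1.29 ± 0.0362 in wild type in 2i and 1.75 ± 0.198 in FBS (SD, n = 4 each). Together the 4 desaturases summed to 187 to 227 FPKM in knockout, 306 to 425 FPKM in wild type in 2i and 168 to 186 FPKM in FBS. Fads3, a paralog outside these 4 genes, differed in the opposite direction in both comparisons, at a low level. It averaged 1.32 FPKM in knockout, 0.644 FPKM in wild type in 2i and 1.37 FPKM in FBS. Fads3 was higher in knockout without overlap (log2 difference 0.49, SE 0.09, adjusted p = 0.000627 by limma). It was lower in 2i than in FBS, again without overlap (-0.53, SE 0.09, adjusted p = 0.000101).

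**Figure D2:**
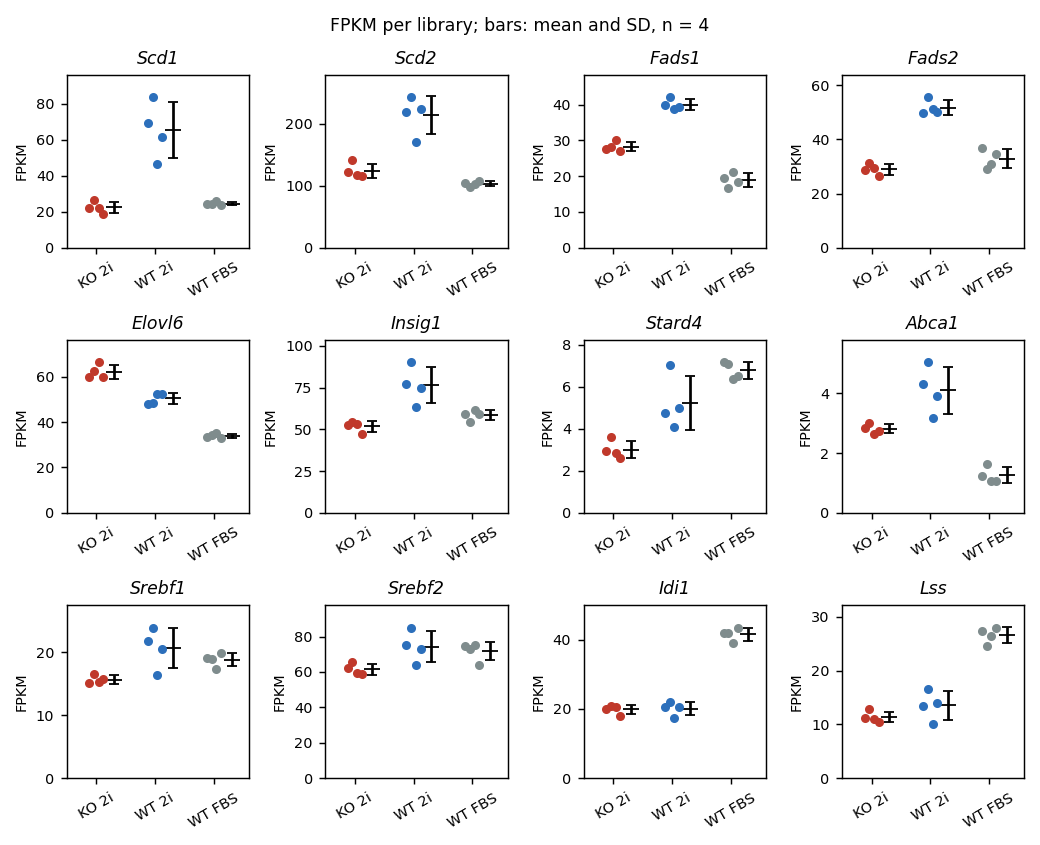
FPKM (vertical axes, starting at 0) of 12 genes in every library, as points for knockout 2i (red), wild type 2i (blue) and wild type FBS (grey), with the mean and SD of 4 libraries as black bars. Scd1 lies between 18.7 and 26.3 FPKM in knockout and between 46.4 and 83.7 FPKM in wild type in 2i, whereas Idi1 overlaps between these groups and is higher in FBS.

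The other fatty acid genes did not share one direction. Elovl6, which lengthens palmitate to stearate, the substrate of the stearoyl-CoA desaturases, was the only one of the 32 genes that rose in knockout. It had 60, 62.5, 66.3 and 59.7 FPKM in knockout libraries, 48.1, 48.5, 52.4 and 52.5 FPKM in wild-type 2i libraries and 33.6, 34.2, 35.1 and 32.9 FPKM in FBS libraries. The 3 groups did not overlap (knockout minus wild type in 2i 0.30, SE 0.05, adjusted p = 0.00029; 2i minus FBS 0.56, SE 0.05, adjusted p = 2.7e-07, both log2). Elovl6 and Scd1, which act in sequence, thus differed in opposite directions between knockout and wild type in 2i.

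Acly, the enzyme that cleaves citrate to cytosolic acetyl-CoA for both routes, averaged 97.6 ± 3.19 FPKM in knockout, 115 ± 9.38 FPKM in wild type in 2i and 102 ± 4.15 FPKM in FBS (SD, n = 4 each). It fell in knockout (log2 difference -0.23, SE 0.05, adjusted p = 0.00462) and was higher in 2i than in FBS (0.17, SE 0.05, adjusted p = 0.0127). Its 2 deposited transcripts differed. NM_134037 averaged 44.1 FPKM in knockout and 60.7 FPKM in wild type in 2i, and NM_001199296 averaged 53.5 FPKM in knockout and 54.2 FPKM in wild type in 2i. With only the higher of its 2 entries kept in each library, Acly did not pass (adjusted p = 0.0991 for knockout and 0.0888 for 2i against FBS). The higher entry was NM_001199296 in every knockout library and NM_134037 in every wild-type 2i library, so this setting tested neither transcript alone. How the authors' tool split reads between such overlapping transcripts is uncertain.

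Acaca, the carboxylase that makes malonyl-CoA, averaged 4.76 ± 0.297 FPKM in knockout, 4.55 ± 0.389 FPKM in wild type in 2i and 7.79 ± 0.622 FPKM in FBS (SD, n = 4 each). It did not pass in knockout (log2 difference 0.05, 95% interval -0.10 to 0.21) and was lower in 2i than in FBS (-0.66, SE 0.07, adjusted p = 2.53e-06). Fasn, the fatty acid synthase itself, had 37.7, 35.8, 38.9 and 35.1 FPKM in knockout libraries, 39.4, 39.7, 41.5 and 41.6 FPKM in wild-type 2i libraries and 53.1, 50.5, 44.6 and 60.5 FPKM in FBS libraries. The knockout libraries all lay below the wild-type 2i libraries by a small margin that did not pass (log2 difference -0.13, 95% interval -0.29 to 0.02, adjusted p = 0.154), and Fasn was lower in 2i than in FBS (-0.35, SE 0.07, adjusted p = 0.000862).

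Among the regulators, both SREBP genes fell in knockout by a modest amount. Srebf1, whose products favour fatty acid genes, had 15.1, 16.6, 15.2 and 15.7 FPKM in knockout libraries, 21.7, 23.9, 16.3 and 20.5 FPKM in wild-type 2i libraries and 19.1, 18.9, 17.3 and 19.8 FPKM in FBS libraries. One wild-type 2i library, replicate 3, fell within the knockout range (log2 difference -0.37, SE 0.09, adjusted p = 0.00553). Srebf2, whose product favours cholesterol genes, had 62.4, 65.4, 59.4 and 58.6 FPKM in knockout libraries, 75.1, 85.1, 63.8 and 73.2 FPKM in wild-type 2i libraries and 74.8, 72.9, 75.2 and 64 FPKM in FBS libraries. Replicate 3 was again the lowest wild-type 2i library and fell within the knockout range (log2 difference -0.26, SE 0.08, adjusted p = 0.016). Neither gene passed between 2i and FBS, with log2 differences of 0.12 (95% interval -0.08 to 0.31) for Srebf1 and 0.05 (95% interval -0.12 to 0.22) for Srebf2. Srebf1 passed without replicate 3 of the wild type in 2i (0.22, adjusted p = 0.00638).

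Of Insig1, Insig2 and Scap, which hold or carry SREBP, only Insig1 passed in either comparison. Insig1, the sterol-regulated retention protein, had 52.5, 54.6, 53.1 and 47.3 FPKM in knockout libraries, 77.5, 90.2, 63.6 and 74.9 FPKM in wild-type 2i libraries and 59.4, 54.3, 61.8 and 59.5 FPKM in FBS libraries. It fell in knockout without overlap (log2 difference -0.54, SE 0.09, adjusted p = 0.000323) and was higher in 2i than in FBS (0.37, SE 0.09, adjusted p = 0.00188). Insig2, its paralog that is not an SREBP target, had 5.09, 5.22, 5.39 and 6.15 FPKM in knockout libraries, 5.73, 6.62, 5.27 and 5.73 FPKM in wild-type 2i libraries and 5.5, 7.57, 5.75 and 5.82 FPKM in FBS libraries. The 3 groups overlapped, and neither log2 difference passed (-0.08, 95% interval -0.28 to 0.12, for knockout; -0.06, 95% interval -0.26 to 0.14, for 2i against FBS). Scap, the escort, had 11.9, 12.4, 13 and 13.4 FPKM in knockout libraries, 11.1, 11.8, 12.7 and 12.7 FPKM in wild-type 2i libraries and 13.3, 12.3, 11.3 and 10.8 FPKM in FBS libraries. Its log2 differences of 0.06 (95% interval -0.08 to 0.21) for knockout and 0.02 (95% interval -0.13 to 0.16) for 2i against FBS did not pass.

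The sterol carriers differed more. Stard4, which moves cholesterol between membranes and is an SREBP target, had 2.94, 3.59, 2.86 and 2.62 FPKM in knockout libraries, 4.73, 7.04, 4.1 and 5.01 FPKM in wild-type 2i libraries and 7.16, 7.08, 6.37 and 6.5 FPKM in FBS libraries. Knockout libraries were the lowest of all (log2 difference -0.62, SE 0.12, adjusted p = 0.00123). The lower level in 2i than in FBS was close to the threshold (-0.34, SE 0.12, adjusted p = 0.0204) and did not pass without replicate 1 (0.0548) or replicate 3 (0.0622) of the wild type in 2i, or without replicate 1 of FBS (0.051). Abca1, the efflux pump that loads cholesterol onto apolipoprotein A-I and is switched on by LXR rather than SREBP, had 2.84, 3.02, 2.65 and 2.75 FPKM in knockout libraries, 4.29, 5.03, 3.17 and 3.89 FPKM in wild-type 2i libraries and 1.23, 1.65, 1.08 and 1.08 FPKM in FBS libraries. Its 3 groups did not overlap: it fell in knockout (log2 difference -0.41, SE 0.11, adjusted p = 0.00911) and was higher in 2i than in FBS (1.17, SE 0.11, adjusted p = 7.56e-07).

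Of the 6 tested mevalonate and isoprenoid enzymes, 0 passed in knockout by limma (2, Acat2 and Pmvk, were lower at an unadjusted p under 0.05), and their median log2 difference was -0.08. Over all genes tested 45.3% passed. Acat2 and Pmvk passed as lower without replicate 3 of the wild type in 2i (adjusted p = 0.0169 and 0.00219). Idi1, which interconverts the isopentenyl diphosphate isomers, had 20.1, 20.8, 20.6 and 18 FPKM in knockout libraries, 20.4, 22, 17.5 and 20.4 FPKM in wild-type 2i libraries and 41.8, 42, 38.9 and 43.5 FPKM in FBS libraries. The knockout and wild-type 2i libraries overlapped (log2 difference -0.01, 95% interval -0.16 to 0.14), and all 8 lay far below the FBS libraries (2i minus FBS -1.02, SE 0.07, adjusted p = 4.05e-08). Mvd, the decarboxylase before Idi1, averaged 21.3 ± 1.72 FPKM in knockout, 23 ± 3.5 FPKM in wild type in 2i and 39.5 ± 1.27 FPKM in FBS (SD, n = 4 each), and was lower in 2i than in FBS (log2 difference -0.76, adjusted p = 5.01e-06). Fdps, the farnesyl diphosphate synthase, averaged 15.5 ± 1.39 FPKM in knockout, 16.2 ± 1.34 FPKM in wild type in 2i and 25.9 ± 2.54 FPKM in FBS (SD, n = 4 each), and was likewise lower in 2i (-0.64, adjusted p = 1.1e-05).

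Pmvk, the second kinase of the route, averaged 20.7 ± 2.4 FPKM in knockout, 25.8 ± 4.46 FPKM in wild type in 2i and 37 ± 2.66 FPKM in FBS (SD, n = 4 each). It narrowly missed the threshold in knockout (log2 difference -0.29, 95% interval -0.54 to -0.04, adjusted p = 0.0535) and was lower in 2i than in FBS (-0.52, adjusted p = 0.00115). Mvk, the first kinase, averaged 14.6 ± 0.956 FPKM in knockout, 14.8 ± 2.04 FPKM in wild type in 2i and 13.1 ± 0.524 FPKM in FBS (SD, n = 4 each), and passed in neither comparison (log2 differences -0.01, 95% interval -0.19 to 0.17, and 0.15, 95% interval -0.02 to 0.33). It was higher in 2i than in FBS without replicate 3 of the wild type in 2i (0.23, adjusted p = 0.00793). Acat2, the cytosolic thiolase that starts the route, was the highest-expressed enzyme of this group in the 2i libraries. It had 36.2, 37.4, 36.8 and 35 FPKM in knockout libraries, 39.7, 41.7, 36.3 and 40.2 FPKM in wild-type 2i libraries and 39.6, 42, 38.5 and 43.1 FPKM in FBS libraries, and neither difference passed (-0.12, 95% interval -0.22 to -0.01, adjusted p = 0.0771, for knockout; -0.05, 95% interval -0.16 to 0.06, for 2i against FBS).

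**Figure D3:**
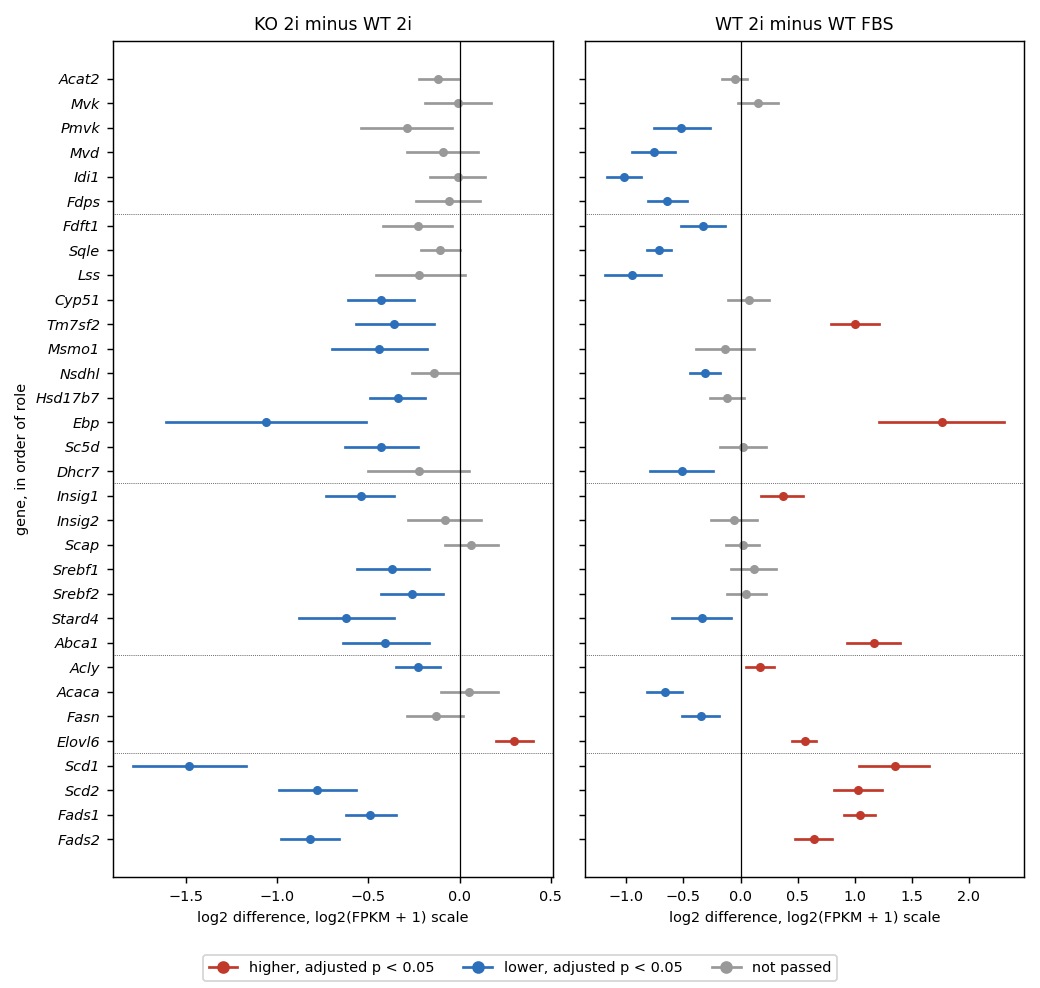
Log2 differences (points) with 95% intervals (lines) of the 32 tested genes on the log2(FPKM + 1) scale, for knockout minus wild type in 2i (left) and 2i minus FBS in wild type (right), in order of role from top to bottom. Blue marks lower and red higher at an adjusted p under 0.05. On the left the 6 mevalonate enzymes at the top lie between -0.29 (Pmvk) and -0.01 and the 4 desaturases at the bottom lie between -1.48 and -0.49; on the right the same enzymes reach -1.02 and the desaturases lie between 0.64 and 1.35.

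The first 3 enzymes of the next segment, from farnesyl diphosphate to lanosterol, were lower in 2i than in FBS and did not pass in knockout. All 3 passed as lower in knockout without replicate 3 of the wild type in 2i (adjusted p = 0.00681 for Fdft1, 0.043 for Sqle and 0.00415 for Lss). Sqle, the squalene epoxidase, had 23.1, 24, 24.3 and 21.7 FPKM in knockout libraries, 25.2, 26.9, 23.8 and 24.8 FPKM in wild-type 2i libraries and 42.7, 43.1, 39.8 and 42.1 FPKM in FBS libraries (knockout minus wild type in 2i -0.11, 95% interval -0.21 to -0.00; 2i minus FBS -0.71, SE 0.05, adjusted p = 4.9e-08). Fdft1, the squalene synthase, had 23.6, 27.8, 29.3 and 26 FPKM in knockout libraries, 30.2, 35.9, 26.5 and 33.2 FPKM in wild-type 2i libraries and 40.9, 36.3, 40.2 and 40.8 FPKM in FBS libraries. Its knockout difference just missed the threshold (-0.23, 95% interval -0.42 to -0.04, adjusted p = 0.0502), and it was lower in 2i than in FBS (-0.33, SE 0.09, adjusted p = 0.00422). Lss, the lanosterol synthase, averaged 11.3 ± 1.02 FPKM in knockout, 13.5 ± 2.7 FPKM in wild type in 2i and 26.6 ± 1.44 FPKM in FBS (SD, n = 4 each; log2 difference -0.22, 95% interval -0.46 to 0.03, for knockout and -0.95, adjusted p = 7.45e-06, for 2i against FBS).

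Downstream of lanosterol, 6 of the 8 enzymes fell in knockout, and Nsdhl and Dhcr7 did not pass. Over all genes 21.4% were lower and 24.0% higher. Dhcr7 passed as lower without replicate 3 of the wild type in 2i (adjusted p = 0.0107 by limma). Whether segments of the pathway differ was not tested. Cyp51, the lanosterol demethylase, had 20.8, 22, 19.8 and 16.4 FPKM in knockout libraries, 27.8, 30.1, 25 and 25 FPKM in wild-type 2i libraries and 26.4, 24.6, 25.8 and 25.4 FPKM in FBS libraries. Every knockout library lay below every wild-type library of either medium (log2 difference -0.43, SE 0.08, adjusted p = 0.00113), and the difference between media did not pass (0.07, 95% interval -0.11 to 0.25). Msmo1, the C4-methylsterol oxidase whose promoter held 3 NF-Y boxes, had 30.1, 33.8, 31.4 and 26.4 FPKM in knockout libraries, 40.1, 53.3, 32.4 and 43 FPKM in wild-type 2i libraries and 47.7, 46.3, 46.4 and 42.9 FPKM in FBS libraries. It fell in knockout although replicate 3 of the wild type in 2i lay within the knockout range (-0.44, SE 0.12, adjusted p = 0.00894), and it did not pass between media (-0.14, 95% interval -0.39 to 0.12). Without replicate 2 of the wild type in 2i, Msmo1 passed as lower in 2i than in FBS (-0.26, adjusted p = 0.0307).

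Hsd17b7, the ketosteroid reductase of C4 demethylation, averaged 3.18 ± 0.192 FPKM in knockout, 4.31 ± 0.327 FPKM in wild type in 2i and 4.76 ± 0.404 FPKM in FBS (SD, n = 4 each), and Sc5d, the sterol C5-desaturase, averaged 7.67 ± 0.551 FPKM in knockout, 10.7 ± 1.56 FPKM in wild type in 2i and 10.5 ± 0.79 FPKM in FBS (SD, n = 4 each). Both fell in knockout without overlap (log2 differences -0.34, adjusted p = 0.00163, and -0.43, adjusted p = 0.00244), and neither passed between media. Hsd17b7 passed there without replicate 3 of FBS (-0.17, adjusted p = 0.0414). Nsdhl, the dehydrogenase that works with Msmo1 and Hsd17b7, averaged 10.3 ± 0.63 FPKM in knockout, 11.5 ± 0.787 FPKM in wild type in 2i and 14.4 ± 0.632 FPKM in FBS (SD, n = 4 each). It did not pass in knockout (-0.14, 95% interval -0.26 to -0.01, adjusted p = 0.076) and was lower in 2i than in FBS (-0.31, adjusted p = 0.00038). Dhcr7, the last reductase to cholesterol, averaged 18.6 ± 1.91 FPKM in knockout, 22.2 ± 5.13 FPKM in wild type in 2i and 31.5 ± 1.42 FPKM in FBS (SD, n = 4 each; -0.22, 95% interval -0.50 to 0.05, for knockout and -0.51, adjusted p = 0.00282, for 2i against FBS).

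Tm7sf2 and Ebp were the only cholesterol enzymes higher in 2i than in FBS. Tm7sf2, a sterol C14-reductase, had 9.78, 10, 9.74 and 9.4 FPKM in knockout libraries, 14.3, 14.7, 9.93 and 12.6 FPKM in wild-type 2i libraries and 6.27, 5.79, 6.19 and 5.22 FPKM in FBS libraries. Replicate 3 of the wild type in 2i lay at the knockout level and the other 3 above it (knockout minus wild type in 2i -0.36, SE 0.10, adjusted p = 0.0103; 2i minus FBS 1.00, SE 0.10, adjusted p = 1.15e-06, both log2).

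Ebp, the sterol isomerase (mm9 chrX:7762457-7770638), had 17.8, 18.1, 17.5 and 15.7 FPKM in knockout libraries, 30.9, 31.1, 34.9 and 56.1 FPKM in wild-type 2i libraries and 8.19, 8.16, 7.96 and 19.9 FPKM in FBS libraries. It fell in knockout (log2 difference -1.06, SE 0.25, adjusted p = 0.00468) and was higher in 2i than in FBS (1.76, SE 0.25, adjusted p = 3.73e-05). In both wild-type groups replicate 4 stood apart, and so did its neighbours: over 36 consecutive tested genes from Nudt11 (start 5624625, mm9) to Ftsj1 (end 7829532), replicate 4 exceeded the mean of replicates 1 to 3 by a median of 0.85 log2 units in wild type in 2i and 0.91 in FBS, and by 0.01 in knockout. The stretch was drawn outward from Ebp for as long as replicate 4 exceeded this mean by over 0.25 in both wild-type groups. That all 36 genes did so was thus fixed by the choice, which did not use the knockout libraries. The median over the 399 other tested X-linked genes was 0.04 in wild type in 2i and -0.03 in FBS. Without replicate 4 of both wild-type groups Ebp kept its direction and call. Its log2 differences were then -0.87 (SE 0.06, adjusted p = 7.21e-06) for knockout and 1.87 (SE 0.07, adjusted p = 1.2e-08) for 2i against FBS. The other 35 genes of the stretch had a median log2 difference of -0.11 for knockout and -0.29 for 2i against FBS over all libraries.

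**Figure D4:**
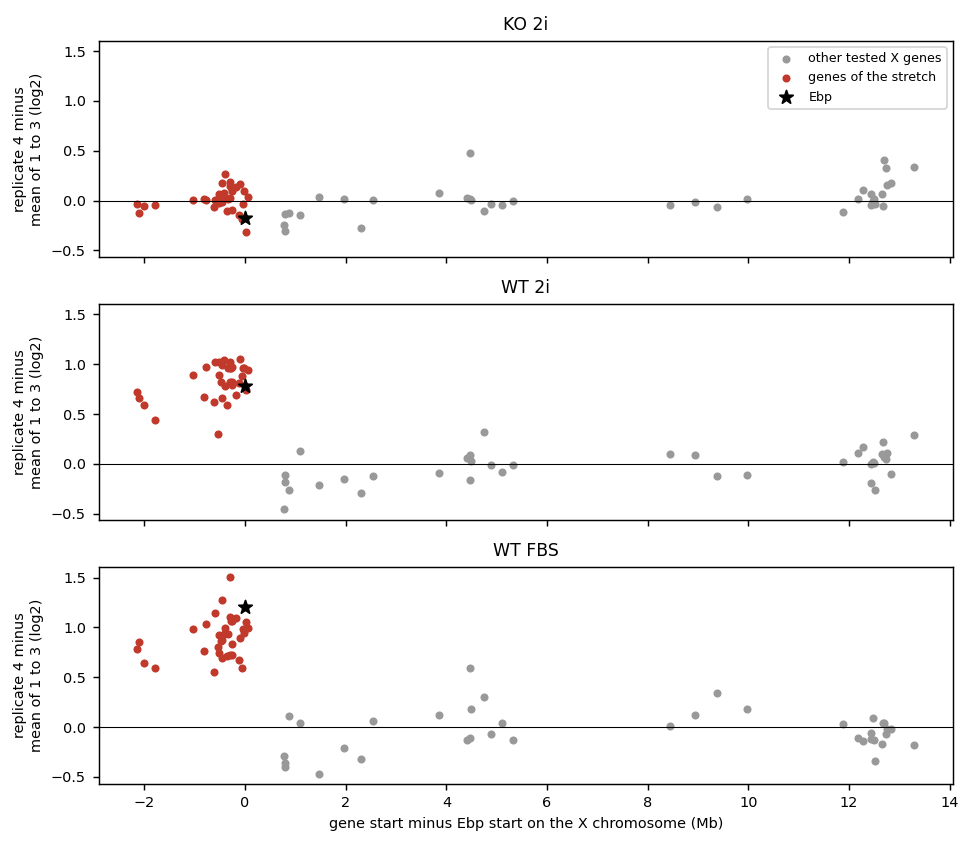
Difference of replicate 4 from the mean of replicates 1 to 3 (vertical axis, log2 units) for tested X-linked genes, against the distance of each gene's start from that of Ebp (horizontal axis, Mb), in knockout 2i, wild type 2i and wild type FBS from top to bottom. The 36 genes of the stretch (red, Ebp as a star) were chosen for lying above 0.25 in both wild-type panels. Their medians there are 0.85 and 0.91, and they lie around 0 in the knockout panel.

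Within a group the genes tended to be high or low in the same library. Replicate 2 of the wild type in 2i was the highest of its group for 24 of 32 genes, against 30.2% of all genes, and replicate 3 was the lowest for 24 of 32, against 36.9% of all genes. In knockout, replicate 2 was the highest for 22 of 32 (26.7% of all genes) and replicate 4 the lowest for 26 of 32 (27.7% of all genes). All 6 mevalonate enzymes had their maximum in replicate 2 and their minimum in replicate 3 of the wild type in 2i, and their maximum in replicate 2 and minimum in replicate 4 of the knockout. FBS libraries showed less of this, replicate 3 being the lowest for 14 of 32. Leaving out replicate 3 of the wild type in 2i raised the number of genes passing in knockout to 23, against 17 over all libraries: Acat2, Pmvk, Fdft1, Sqle, Lss and Dhcr7 then also passed as lower. Leaving out any other single library gave 17 or 18, and in none of these 12 settings did one of the 17 lose its call.

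**Figure D5:**
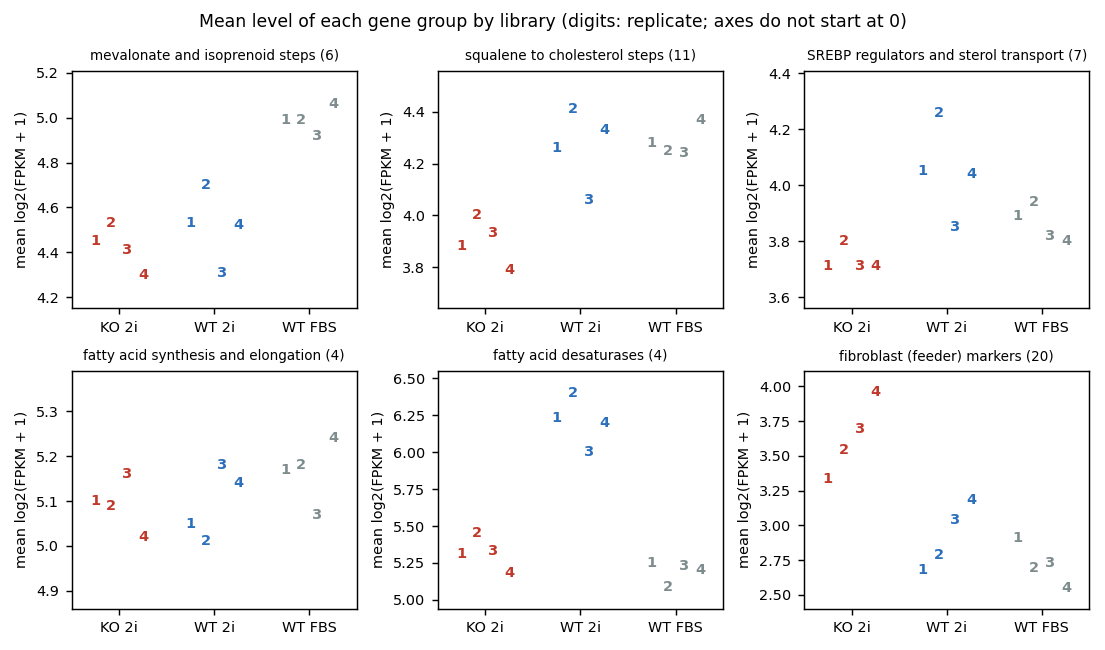
Mean log2(FPKM + 1) per library (vertical axes, not starting at 0) for the 5 roles and for the 20 fibroblast markers, in knockout 2i, wild type 2i and wild type FBS from left to right in each panel, with digits giving the replicate. Desaturases average 5.32 in knockout, 6.21 in wild type in 2i and 5.19 in FBS, whereas fibroblast markers are highest in knockout, between 3.33 and 3.96.

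The fibroblast markers moved with the knockout comparison. With their mean log2 level added to the fit as a covariate, 4 of the 32 genes still passed in knockout, against 17 without it, and these were the 4 desaturases: the log2 differences were -1.10 for Scd1 (SE 0.23, adjusted p = 0.00978), -0.60 for Scd2 (SE 0.17, adjusted p = 0.0381), -0.48 for Fads1 (SE 0.12, adjusted p = 0.0205) and -0.76 for Fads2 (SE 0.14, adjusted p = 0.00454). Over all genes 1857 passed with the covariate and 5589 without it. The covariate differs between the groups, so it also widened the errors: the median SE of the 32 genes was 0.14 with it and 0.08 without it. Among the 13 genes that no longer passed, some differences were smaller with the covariate, such as -0.15 for Cyp51 (SE 0.12, adjusted p = 0.45) and -0.34 for Insig1 (SE 0.15, adjusted p = 0.141). Others were close to their value without it but with a larger SE, such as -1.01 for Ebp (SE 0.48, adjusted p = 0.181) and -0.24 for Acly (SE 0.10, adjusted p = 0.154). The median of the mevalonate enzymes was 0.15 with it. The part of fibroblast RNA in the knockout differences was not tested beyond this fit. In 2i against FBS, 22 of the 32 genes passed with the covariate and 22 without it, but the sets differed. Mvk passed only with it (0.21, adjusted p = 0.0426), and Stard4 passed only without it (-0.29 with it, adjusted p = 0.0638).

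Outside these genes, 117 further lipid genes were listed and 112 were tested; 44 were lower and 21 higher in knockout (backgrounds 21.4% and 24.0%), with a median log2 difference of -0.11, and 54 were higher and 30 lower in 2i than in FBS (backgrounds 37.1% and 35.3%). In fatty acid synthesis, desaturation and elongation 15 of 25 were lower and 3 higher in knockout, against 21.4% and 24.0% over all genes. Acacb, the mitochondrial acetyl-CoA carboxylase, averaged 7.51 ± 0.398 FPKM in knockout, 15.5 ± 0.825 FPKM in wild type in 2i and 3.64 ± 0.171 FPKM in FBS (SD, n = 4 each; log2 difference -0.95, adjusted p = 1.17e-07, for knockout). Me1, the malic enzyme that supplies NADPH, averaged 5.82 ± 0.403 FPKM in knockout and 13.6 ± 2.09 FPKM in wild type in 2i (-1.09, adjusted p = 2.43e-06). Slc25a1, the mitochondrial citrate carrier that feeds Acly, averaged 45.1 ± 1.72 FPKM in knockout and 66.5 ± 2.48 FPKM in wild type in 2i (-0.55, adjusted p = 3.01e-06). Elovl7, another elongase, averaged 0.568 ± 0.0432 FPKM in knockout and 3.04 ± 0.625 FPKM in wild type in 2i (-1.35, adjusted p = 4.37e-06; SD, n = 4 each). Degs1, the highest-expressed gene of this list that did not pass, averaged 42.8 ± 2.03 FPKM in knockout and 42.2 ± 6.11 FPKM in wild type in 2i. Between media, 15 of 25 were higher and 9 (36.0%) lower in 2i. Thrsp, a lipogenic nuclear protein, was higher (log2 difference 2.02, adjusted p = 3.22e-08). The acyl-CoA synthetases Acsl4 and Acsl5 were lower (-2.14, adjusted p = 8.5e-11, and -1.74, adjusted p = 1.38e-08), while Elovl1 did not pass (-0.19, adjusted p = 0.0735).

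Of 17 tested genes for cholesterol uptake, transport, storage and efflux, 6 (35.3%) were lower and 5 (29.4%) higher in knockout, against 21.4% lower and 24.0% higher over all genes. Scarb1, the HDL receptor, had 20.4, 20.8, 19.2 and 18.6 FPKM in knockout libraries, against 41, 45.5, 36.5 and 36.6 FPKM in wild-type 2i libraries (log2 difference -0.97, SE 0.08, adjusted p = 3.01e-06). Lrp8, a receptor for apolipoprotein E, fell (-0.66, adjusted p = 0.000129), and so did Osbpl2, an oxysterol-binding protein (-0.33, adjusted p = 0.00146). Soat1, which esterifies cholesterol for storage, was the contrary case: it averaged 4.82 ± 0.417 FPKM in knockout, 2.88 ± 0.478 FPKM in wild type in 2i and 14.8 ± 0.87 FPKM in FBS (SD, n = 4 each), higher in knockout (0.59, adjusted p = 0.00016) and lower in 2i than in FBS (-2.03, adjusted p = 6.84e-10). Npc2, the lysosomal cholesterol carrier, did not pass in knockout (-0.16, adjusted p = 0.0681) and was higher in 2i than in FBS (1.10, adjusted p = 1.31e-08). Scarb2, a lysosomal membrane protein, was higher in knockout (0.38, adjusted p = 0.00369) and lower in 2i (-0.93, adjusted p = 7.1e-07), and Gramd1a, a sterol transporter, did not pass between media (-0.12, adjusted p = 0.295).

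Of 16 tested genes for SREBP processing and regulation, 6 (37.5%) were lower and 2 (12.5%) higher in knockout, against 21.4% and 24.0% over all genes. In 2i, 8 (50.0%) were higher and 5 (31.2%) lower, against 37.1% and 35.3%. The site-1 protease gene Mbtps1, which makes the first cut in SREBP, rose in knockout (log2 difference 0.24, adjusted p = 0.0007) and was lower in 2i than in FBS (-0.36, adjusted p = 5.37e-06). The site-2 protease gene Mbtps2 fell in knockout (-0.18, adjusted p = 0.0115) and was lower in 2i (-0.34, adjusted p = 6.15e-05). Mid1ip1, an activator of acetyl-CoA carboxylase, rose in knockout (0.55, adjusted p = 0.000229), whereas Erlin2, a membrane protein of the endoplasmic reticulum, fell (-0.20, adjusted p = 0.00147). Lpin1, a phosphatidate phosphatase (0.80, adjusted p = 4.3e-05), and Pcyt1a, of phosphatidylcholine synthesis (0.39, adjusted p = 2.81e-05), were higher in 2i than in FBS. Nr1h2, which encodes the sterol receptor LXR beta, did not pass in knockout (0.06, adjusted p = 0.319).

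Of 15 genes of the isoprenoid branch, 4 were higher and 0 lower in knockout by limma (5 and 1 at an unadjusted p under 0.05). The 26.7% higher is near the 24.0% over all genes. Fnta, a farnesyltransferase subunit (0.25, adjusted p = 0.000675), Icmt (0.13, adjusted p = 0.0242), Rce1 (0.16, adjusted p = 0.0308) and Coq2 (0.31, adjusted p = 0.047) were these 4. Fnta and Icmt were lower in 2i than in FBS (-0.58, adjusted p = 1.4e-07, and -0.60, adjusted p = 7.39e-08), and Fntb and Zmpste24 were higher (0.42, adjusted p = 4.03e-05, and 0.46, adjusted p = 7.14e-05). Nus1 did not pass in either comparison.

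Among 23 glycerolipid and phospholipid genes 10 (43.5%) were lower and 4 (17.4%) higher in knockout, against 21.4% and 24.0% over all genes. Chka, the choline kinase that opens phosphatidylcholine synthesis, had 13, 12.9, 13 and 12.3 FPKM in knockout libraries, against 43.7, 43, 45.1 and 38.3 FPKM in wild-type 2i libraries (log2 difference -1.65, SE 0.06, adjusted p = 3.74e-09). Lpin3 (0.48, adjusted p = 0.000146) and Agpat1 (0.27, adjusted p = 0.000444) rose, Ptdss1 fell (-0.32, adjusted p = 0.000696), and Etnk1 did not pass (-0.21, adjusted p = 0.166). Of 21 tested genes of fatty acid oxidation 9 (42.9%) were lower and 4 (19.0%) higher in knockout, against the same background. Cpt1a, the transferase that admits fatty acids to mitochondria, had 17.1, 16.9, 17.1 and 17 FPKM in knockout libraries, 54.9, 49.3, 55.3 and 50.6 FPKM in wild-type 2i libraries and 9.89, 9.42, 12.4 and 8.84 FPKM in FBS libraries (-1.57, SE 0.08, adjusted p = 3.98e-08, for knockout; 2.27, SE 0.08, adjusted p = 1.74e-10, for 2i against FBS). Etfa (-0.27, adjusted p = 0.000614) and Acadm (-0.34, adjusted p = 0.00318) also fell, Ehhadh rose (0.37, adjusted p = 0.00142), and Hadh did not pass (-0.18, adjusted p = 0.0551). Between media, 10 glycerolipid and phospholipid genes (43.5%) were higher and 6 (26.1%) lower in 2i, against 37.1% and 35.3% over all genes. Agpat5 (0.83, adjusted p = 3.73e-08), Cept1 (0.78, adjusted p = 1.78e-07) and Ptdss1 (0.70, adjusted p = 2.1e-07) were higher and Cds1 was lower (-2.13, adjusted p = 6.35e-08). Of the oxidation genes 13 (61.9%) were higher and 3 (14.3%) lower in 2i. Etfa (0.61, adjusted p = 1.33e-07), Etfb (0.77, adjusted p = 1.37e-07) and Hadha (0.53, adjusted p = 1.02e-07) were higher, and Eci2 did not pass (0.02, adjusted p = 0.84).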

How the data were processed

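RNA was extracted with Trizol and sequenced from TruSeq libraries, per the labels' protocols. The submitters' processing notes name CASAVA 1.8.2, Cufflinks and the mouse build mm9; which aligner was used is not given in the sources used here. FPKM values were deposited by the authors for each RefSeq transcript with bounds and a status, per the file headers. RefSeq (GRCm38.p6) and GENCODE vM21 tables named 30399 of 30761 entries, and entries of a symbol were summed. The 7 genes touched by 23 entries with a failed estimate were left out. FPKM hide absolute depth, so no count test was run, and relative depth was read from the steps between low values. Coordinates are 1-based.

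The 12329 genes that reached 1 FPKM in 4 or more libraries were fitted as log2(FPKM + 1) with limma 3.58.1 in R 4.3.3 (1 mean per group over 12 libraries, eBayes with intensity trend). Adjusted p-values are two-sided, Benjamini-Hochberg over all genes tested, and called under 0.05; the pseudocount understates differences of low genes. The model was tested on simulated data with independent noise in each gene and few genes changed. In these libraries many genes were called and genes moved together by library, so the simulation cannot decide how well the calls hold here. Tfcp2l1 was also tested by exact permutation (Python 3.11.15, scipy 1.17.1). No p was computed for a list. The 33 genes, the 117 further lipid genes and the marker lists (fibroblast, ESC, visceral and parietal endoderm) were chosen with earlier results of these data known. Values in every library are given for the regulators and, per comparison, for the 8 genes with the smallest adjusted p and the 3 most abundant that did not pass; of other lists up to 4 called genes, and the most abundant not passing, are named. Ebp, Msmo1, Tm7sf2, Scarb1, Soat1, Chka and Cpt1a were given in more detail after their values were seen. Scd3, Scd4 and Fads3 were named as paralogs of the desaturases. Alternatives were another pseudocount, filters, scalings, sample sets, a replicate block, the highest entry per symbol in each library and eBayes without trend. Further ones were a fibroblast covariate, a stricter threshold and leaving out each library. Leaving out replicate 4 of both wild-type groups was chosen after seeing the data. Some single genes are left unreported.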

Additional observations from a re-analysis of the deposited data

Results flagged for a closer look

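In 6 of the 96 sets of 4 libraries examined (32 genes in 3 groups), the highest or lowest library stood apart from the other 3 by more than Dixon's 95% limit; chance flags about 1 in 20 such sets. Those in Ebp belong to the X-linked stretch described above: replicate 4 had 56.1 FPKM in wild type in 2i, where the other 3 had 30.9 to 34.9, and 19.9 FPKM in FBS, where the other 3 had 7.96 to 8.19. Sc5d had 11.7 FPKM in replicate 4 of FBS, above 10.1 to 10.2 in the others. In replicate 2 of FBS, Fdft1 was low at 36.3 FPKM, where the others had 40.2 to 40.9, and Insig2 was high at 7.57 FPKM, where the others had 5.5 to 5.82. Acaca was low in replicate 4 of the knockout at 4.31 FPKM, where the others had 4.85 to 4.96.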

How the results depend on the processing

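The number of genes called was within 1.5 times its reported value under every alternative run, in both comparisons, with these exceptions. With the fibroblast covariate the knockout comparison called 1857 of all genes, 4 of the 32 and 21 of the further lipid genes (reported 5589, 17 and 65), and at an adjusted p under 0.01 it called 41 further lipid genes; the stricter threshold lowers a count by construction, and the cause under the covariate was not tested. Leaving out 1 library gave 4682 to 5843 genes, 17 to 23 of the 32 and 54 to 69 further lipid genes in knockout, 8405 to 8884 genes, 21 to 23 of the 32 and 81 to 85 further lipid genes in 2i against FBS, and -0.81 to -0.69 for Tfcp2l1. The replicate block gave 5567 genes and 18 of the 32 in knockout, where Pmvk also passed (-0.29, SE 0.07, adjusted p = 0.0107), so that 1 of the 6 mevalonate enzymes did, and 8899 genes and 22 of the 32 in 2i against FBS. Deviations of same-numbered libraries correlated at 0.055 to 0.258 and at 0.027 to 0.186, so the numbers were not taken as pairs. Knockout replicates 2, 3 and 4 nevertheless correlated best with their own number in wild type in 2i. So did wild-type 2i replicates 2 and 4 with theirs in FBS. Replicate 4 of both wild-type groups also shared the raised X-linked stretch. Whether same-numbered libraries have a common origin was not tested. The 4 desaturases passed in all 25 alternatives in both comparisons, with log2 differences in knockout of -1.64 to -1.10 for Scd1. Signs turned only in values that did not pass. In knockout, Mvk turned to 0.01 (TPM scaling), 0.18 (covariate) and 0.00 (quantile) and ranged from -0.09 to 0.06 over single libraries left out; Idi1 turned to 0.01 (TPM scaling) and 0.16 (covariate) and ranged from -0.07 to 0.03; Mvd turned to 0.14 and Dhcr7 to 0.05 (covariate), Fdps to 0.19 (covariate) and 0.01 (highest entry), Insig2 to 0.14 (highest entry), and Scap to -0.19 (covariate) and -0.02 (highest entry). In 2i against FBS, Scap turned to -0.05 (without replicate 4 of both wild-type groups), -0.06 (covariate), -0.12 (highest entry) and -0.03 (quantile) and ranged from -0.02 to 0.07 over single libraries left out, Sc5d turned to -0.03 (quantile) and ranged from -0.03 to 0.12, Insig2 ranged from -0.11 to 0.03, and Srebf2 turned to -0.00 (without replicate 4 of both wild-type groups) and ranged from -0.02 to 0.12. The causes of these turns were not tested. With a filter of 5 FPKM, 30 of the 32 genes were tested, without Hsd17b7 and Abca1, and absolute depth is unknown.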

Other observations

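Markers of extraembryonic endoderm were examined because those cells are rich in lipid transport genes. Of 10 visceral endoderm markers 5 were tested, and 2 were higher and 1 lower in knockout, against 24.0% and 21.4% over all genes. Dab2, an endocytic adaptor gene, averaged 2.33 ± 0.433 FPKM in knockout and 1.47 ± 0.296 FPKM in wild type in 2i (log2 difference 0.43, limma adjusted p = 0.00877), and Amn averaged 0.566 ± 0.0786 FPKM in knockout and 0.346 ± 0.134 FPKM in wild type in 2i (0.22, adjusted p = 0.0386; SD, n = 4 each). Amn was under 1 FPKM in every 2i library and met the filter of 1 FPKM only through FBS (2.67 to 3.16 FPKM). Apom, an apolipoprotein gene, averaged 1.34 ± 0.484 FPKM in knockout, 9.1 ± 2.54 FPKM in wild type in 2i and 0.541 ± 0.141 FPKM in FBS (SD, n = 4 each; log2 difference -2.10, limma adjusted p = 3.06e-06, for knockout). The summed level of this list was 9.77 to 12.7 FPKM in knockout, 14.9 to 35.8 FPKM in wild type in 2i and 15.8 to 18.6 FPKM in FBS, and 5 of its 10 genes stayed under 1 FPKM in all 12 libraries. Of 10 parietal endoderm markers 3 were higher and 2 lower in knockout, with a median log2 difference of 0.33. The 50% that passed is near the 45.3% over all genes (24.0% higher and 21.4% lower). Thbd (0.76, adjusted p = 0.00261), Plat (0.52, adjusted p = 0.00402) and Pth1r (0.52, adjusted p = 0.00379) were higher and Lama1 was lower (-1.03, adjusted p = 0.0045). Pth1r was near the floor, at 0.4 to 0.933 FPKM in knockout and 0.0754 to 0.23 FPKM in wild type in 2i. It met the filter of 1 FPKM only through FBS (3.8 to 5.61 FPKM). Nid1, a basement membrane gene, averaged 42.5 ± 3.21 FPKM in knockout and 104 ± 12 FPKM in wild type in 2i (-1.26, adjusted p = 1.54e-06), while Sparc did not pass (-0.18, adjusted p = 0.198). Their part in the lipid gene differences was not tested. The ratio of Srebf2 to Srebf1 within a library was 3.93 ± 0.158 in knockout, 3.62 ± 0.196 in wild type in 2i and 3.84 ± 0.46 in FBS (SD, n = 4 each).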
